A study of Mus musculus with 4 samples.

Results

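Mouse p53-/- fetal liver progenitors that carry H-RasV12 were set directly against the same kind of progenitors carrying myr-Akt, so that the reference was not the non-transformed culture but the other oncogene. These are 2 arrays of the 4 in the series, chosen by their labels, and the difference was taken as H-RasV12 minus myr-Akt over all genes that a single-gene probe set stood for. Of 18193 such genes, 10267 were counted because their signal lay above a floor of 100.001 (20% of the array's trimmed mean) on at least 1 of the 2 arrays, and the signals are MAS5 intensities. Where 4 signals stand without names, they are in the order non-transformed, H-RasV12, myr-Akt and c-Myc, and where 2 stand as one against the other, H-RasV12 comes first.

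The 4 cultures came from fetal liver progenitors, the common precursors of hepatocytes and cholangiocytes, and all of them lacked p53. One was not transformed, and the others carried H-RasV12, myr-Akt or c-Myc. Every culture grew in DMEM and F12 with 10% fetal bovine serum, dexamethasone, 20 ng/ml of EGF and 50 ng/ml of HGF, so the ligands of the EGF receptor and of MET were present throughout, and each labelling reaction began with 1 µg of RNA. How the oncogenes were delivered, their promoters and the number of clones are not stated in the material used here. With 1 array in each group there is no spread between replicates, so no difference below has a standard error or a p-value, and each is a difference between 2 arrays.

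RAS proteins are small GTPases that switch on the RAF, MEK and ERK kinases when bound to GTP, and the V12 form of H-Ras cannot hydrolyse its GTP and stays on. ERK induces ETS and AP-1 transcription factors and, as brakes on itself, the DUSP phosphatases and the Sprouty and Spred proteins. AKT kinases act below PI3K: a myristoyl group holds myr-Akt at the membrane, where AKT is activated, and AKT then inactivates FOXO transcription factors and releases mTORC1, which drives ribosome production, lipid synthesis and translation of ATF4. RAS can also activate PI3K, so the 2 oncogenes are not strict alternatives.

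The genes named in the labels were looked at first. Myc read 2285 on the non-transformed array, 1747 on H-RasV12, 639.7 on myr-Akt and 421 on c-Myc, its lowest value being that of the c-Myc array. Akt1 read 1870.1 on the non-transformed array, 2760.3 on H-RasV12, 2834 on myr-Akt and 2991 on c-Myc, which did not set the myr-Akt array apart. The sources used here do not say whether these probe sets bind the transgene RNAs, and Hras and Trp53 were not analysed here, so the direction of every difference rests on the labels. The 2 arrays were alike in their technical readings: 9927 genes were above the floor on H-RasV12 and 9512 on myr-Akt, and the beta-actin control probe sets, a sign of RNA integrity, gave 5′ over 3′ ratios of 0.907 and 0.846. Xist, the RNA of the inactive X chromosome, read 6070.0 on the non-transformed array, 6249 on H-RasV12, 559.5 on myr-Akt and 4209 on c-Myc, and the Y-linked gene Eif2s3y read 535 on the non-transformed array, 559 on H-RasV12, 945 on myr-Akt and 642 on c-Myc, so RNA of both kinds was on every array and Xist was 11.2-fold lower on myr-Akt than on H-RasV12. X-linked genes had a median log2 difference of -0.10 over 332 genes and autosomal genes of -0.01 over 9915; the part of the unequal Xist signal in other differences was not tested.

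The contrast leaned to the H-RasV12 side. Of the 10267 genes, 999 (9.73%) were at least 2-fold higher on the H-RasV12 array and 468 (4.56%) at least 2-fold lower, so 68.1% of the genes past 2-fold were higher. At 4-fold or more the counts were 301 and 108, and at 16-fold or more 25 and 10. The median log2 difference over all counted genes was -0.01, so the lean lay in the genes far from the middle. The shares of 9.73% higher and 4.56% lower are the background for the count of every list below, so more higher than lower members is usual. For a gene under the floor on 1 side the fold is a lower limit, given with the words at least, which applied to 301 of the higher and 107 of the lower genes. A gene above the floor on H-RasV12 only could not have been lower there, and the reverse holds for myr-Akt.

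**Figure D1:**
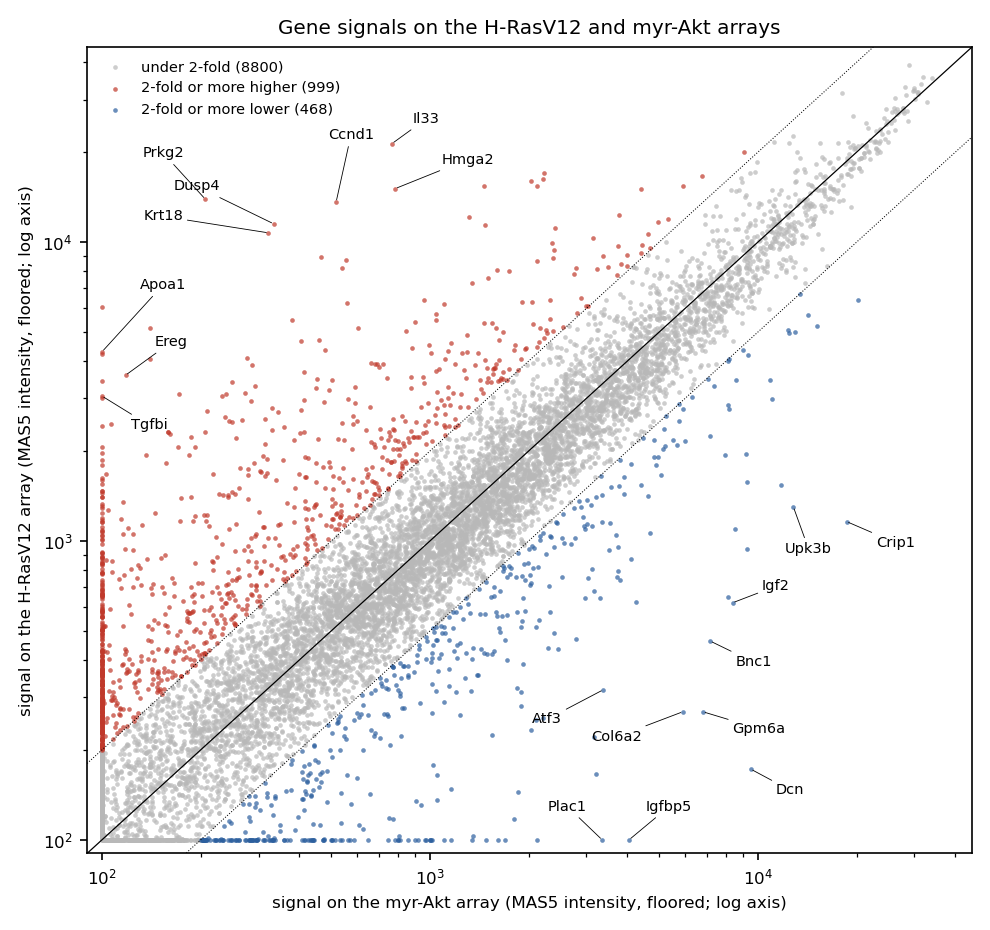
Signal of each of the 10267 counted genes on the myr-Akt array (horizontal, log axis) and the H-RasV12 array (vertical, log axis), both as MAS5 intensities set to the floor where below it; the solid line marks equal signal and the dotted lines 2-fold. Red points are the 999 genes at least 2-fold higher on H-RasV12 and blue points the 468 at least 2-fold lower; Prkg2 and Dusp4 lie farthest up on the left among the labelled genes measured on both arrays, and Dcn farthest to the lower right.

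The largest difference among genes above the floor on both arrays was in Prkg2, which encodes a cGMP-dependent protein kinase. Its signal was 5433 on the non-transformed array, 13948 on H-RasV12, 206 on myr-Akt and 313 on c-Myc, a 67.6-fold excess on H-RasV12 over myr-Akt, and a further probe set gave a log2 difference of 6.41. High signal was shared with non-transformed cells, and the myr-Akt and c-Myc arrays were both low. Ank3, which encodes the membrane adaptor ankyrin-G, read 1033 on the non-transformed array, 5144 on H-RasV12, 139.5 on myr-Akt and 1322 on c-Myc (36.9-fold), and here c-Myc was not low. Sh2d5, an SH2-domain protein, was 29.2-fold higher (4077 against 139.6), and Dpysl3, a cytoskeletal regulator of migrating cells, 23.1-fold (2458 against 106).

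Further genes at the H-RasV12 end came from several protein classes. Clu, which encodes the extracellular chaperone clusterin, read 4733 on the non-transformed array, 8919 on H-RasV12, 464 on myr-Akt and 738 on c-Myc. Tspan8, a tetraspanin, was 18.1-fold higher and Nrn1, a GPI-anchored neuritin, 15.2-fold higher. Of the genes below the floor on myr-Akt, the largest bound was that of Clca3a1, a secreted chloride channel regulator, which read 1459 on the non-transformed array, 6081 on H-RasV12, 85.9 on myr-Akt and 183 on c-Myc and was at least 60.8-fold higher. Its probe set is of a kind that can bind several transcripts, and a further one gave a smaller bound, a log2 difference of 3.55. Pcsk6, a proprotein convertase that activates TGF-beta family ligands, was at least 42.2-fold higher and Samd5 read 2999.8 against 15.7. Non-transformed cells lay between the 2 oncogene arrays for each of these 6 genes, with c-Myc on the low side.

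At the other end stood Dcn, which encodes decorin, a proteoglycan that binds collagen and growth factors. It read 10469 on the non-transformed array, 172 on H-RasV12, 9524 on myr-Akt and 7765 on c-Myc, so the H-RasV12 array alone was low, 55.3-fold below myr-Akt. Its further probe set lay under the floor on both arrays and could not check this. Nrep, a neuronal regeneration-related gene, was 19.3-fold lower (166 against 3206) and Crip1, a LIM-domain protein, 16.1-fold lower (1161 against 18664), with Crip1 higher on myr-Akt than on the other 3 arrays. Itm2a, a membrane protein, read 3765 on the non-transformed array, 937 on H-RasV12, 9247 on myr-Akt and 4635 on c-Myc. Prr15 (15.3-fold) and Ddc, the aromatic amino acid decarboxylase (12.8-fold), were near the floor on H-RasV12, and Usp2, a deubiquitinase, was under the floor there and at least 14.8-fold lower.

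The inhibitors that ERK induces against itself were higher on the H-RasV12 array in 11 of 22 members. The threshold was 2-fold, and 2 members were lower, with a median log2 difference of 1.11, against 9.73% higher, 4.56% lower and a median of -0.01 over all genes. Dusp4, a nuclear phosphatase that removes phosphate from ERK, read 5569.5 on the non-transformed array, 11525 on H-RasV12, 333 on myr-Akt and 866 on c-Myc. That is a 34.6-fold difference between the oncogenes, and the H-RasV12 array was the highest of the 4. Dusp6, its cytoplasmic ERK-specific relative, read 9169 on the non-transformed array, 12162 on H-RasV12, 1314 on myr-Akt and 3377 on c-Myc (9.25-fold), and Dusp5, a nuclear one, 2528 on the non-transformed array, 3704 on H-RasV12, 1041 on myr-Akt and 1785 on c-Myc (3.56-fold).

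Several inhibitors that are not phosphatases went the same way. Il17rd (Sef), which holds MEK and ERK in the cytoplasm, read 904 on the non-transformed array, 1679.7 on H-RasV12, 102 on myr-Akt and 283 on c-Myc, at the edge of the floor on myr-Akt. Errfi1 (Mig6), which inhibits the EGF receptor kinase, was 5.46-fold higher (7326 against 1343) and Lrig1, which promotes turnover of ERBB receptors, 3.5-fold (2032 against 579.7). Spred1 was 3.75-fold, Spred2 3.03-fold and Spred3 at least 3.34-fold higher; Spred proteins recruit neurofibromin to RAS. Spry4 (319.5 against 98) and Spry2 (2650.3 against 1108), which act between receptor and RAF, were at least 3.19-fold and 2.39-fold higher, but neither reached 2-fold when all probe sets of the gene were averaged (log2 0.48 and 0.63), nor did Spred2 (0.84).

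The remaining members did not share the difference. Dusp1, an early-response phosphatase for p38 and JNK as well as ERK, read 10127 on the non-transformed array, 3744 on H-RasV12, 4835 on myr-Akt and 3624 on c-Myc, lower on both oncogene arrays than in non-transformed cells and -0.37 on the log2 scale between them. Dusp16 (0.23), Dusp7 (0.68), Spry1 (0.73), Lrig3 (0.81), Dusp10 (0.93) and Dusp14 (-0.78) lay within 2-fold. Dusp9 (195 against 38.9) and Dusp2 (113 against 88.4) were under the floor on myr-Akt. Dusp8 (79.1 against 313), which acts on JNK and p38, and Spry3 (58.5 against 329) were under the floor on H-RasV12 and at least 3.13-fold and at least 3.29-fold lower.

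Among transcription factors induced by ERK the difference lay in few members: 4 of 22 counted were at least 2-fold higher, 1 was lower and the median was 0.15. Etv4 and Etv5, ETS factors of the PEA3 family, read 308 on the non-transformed array, 1174 on H-RasV12, 2.1 on myr-Akt and 7.1 on c-Myc and, in the same order, 923, 1306, 36.7 and 195. Both were under the floor on myr-Akt and so were at least 11.7-fold and at least 13.1-fold higher on H-RasV12. Fosl1 (Fra-1), an AP-1 subunit whose protein ERK stabilises, read 1463 on the non-transformed array, 2947 on H-RasV12, 284 on myr-Akt and 145 on c-Myc (10.4-fold). Hmga2, an architectural chromatin protein of fetal and transformed cells, read 9738 on the non-transformed array, 15118 on H-RasV12, 784 on myr-Akt and 1492 on c-Myc (19.3-fold), and its further probe set gave 4.61.

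The immediate-early genes did not follow them. Egr1 read 10598 on the non-transformed array, 13222 on H-RasV12, 11191 on myr-Akt and 13204 on c-Myc, a log2 difference of 0.24, and Fos read 15828 on the non-transformed array, 10022 on H-RasV12, 12862 on myr-Akt and 11091 on c-Myc, with the highest value in non-transformed cells. Jun went the other way, at 6735 on the non-transformed array, 2757 on H-RasV12, 8167 on myr-Akt and 3476 on c-Myc, 2.96-fold lower on H-RasV12. Ier2 (0.09), Ier3 (0.15), Ier5 (-0.15), Fosb (0.17), Junb (0.49), Jund (-0.47), Fosl2 (-0.22), Egr2 (0.14) and Srf (-0.38) lay within 2-fold, as did Nr4a1 (0.80), Maff (0.83), Klf4 (-0.34), Klf6 (-0.17) and Klf10 (-0.67). Egr3 was near the floor (176 against 42.8).

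The EGF family ligands Ereg, Hbegf, Btc and Tgfa and the receptor gene Erbb2 were higher on the H-RasV12 array, while the ligand gene Nrg2 and the receptor genes Egfr and Met were within 2-fold. Of 8 members counted out of 15 with a probe set, 5 passed 2-fold on the higher side and 0 on the lower, and the median was 1.08. Of the 8, 2 were above the floor on H-RasV12 only, and over the 6 above it on both arrays the median was 0.63. Ereg, which encodes epiregulin, read 1731 on the non-transformed array, 3589 on H-RasV12, 118 on myr-Akt and 49 on c-Myc (30.4-fold). Hbegf, the heparin-binding ligand, read 5495 on the non-transformed array, 8072 on H-RasV12, 1599 on myr-Akt and 1979 on c-Myc (5.05-fold), and Btc, betacellulin, was at least 5.83-fold higher (583 against 98.4). Tgfa was near the floor (221 against 26.5), and its excess fell to 0.38 on the log2 scale when its probe sets were averaged. The receptor gene Egfr read 2769.6 on the non-transformed array, 1918 on H-RasV12, 1629 on myr-Akt and 1701 on c-Myc (0.24) and Met, the HGF receptor gene, 2218 on the non-transformed array, 2321 on H-RasV12, 2344 on myr-Akt and 4009.8 on c-Myc (-0.01), while Erbb2 reached 1.02 (354 against 175). Nrg2, a neuregulin, read 157 against 187 (-0.25).

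A list of further ERK output genes had 9 of 15 members higher, 0 lower and a median of 1.14. Of these 15, 3 were above the floor on H-RasV12 only, and over the 12 above it on both arrays the median was 1.12. Ccnd1, the cyclin D1 gene that carries mitogen signals into the cell cycle, read 7334 on the non-transformed array, 13638 on H-RasV12, 517 on myr-Akt and 514 on c-Myc. It was thus 26.4-fold higher on H-RasV12, with myr-Akt and c-Myc alike, and its further probe set gave 4.71. Cd44, the hyaluronan receptor, read 10918 on the non-transformed array, 15409.7 on H-RasV12, 1466 on myr-Akt and 1471 on c-Myc (10.5-fold) and Emp1, a tetraspan membrane protein, 5694 on the non-transformed array, 8704 on H-RasV12, 555 on myr-Akt and 559 on c-Myc (15.7-fold). Vgf, a secreted peptide precursor, and Sphk1, which makes sphingosine phosphate, were at least 3.69-fold and at least 3.29-fold higher; the receptors Epha2 (2.79-fold), Epha4 (2.22-fold) and Tnfrsf12a (2.21-fold) were just past 2-fold, as was Ptgs2 (2.15-fold), the inducible cyclooxygenase. Plaur (0.60), Phlda1 (0.67), Lif (-0.02), Vegfa (-0.30) and Slc20a1 (-0.57) were within 2-fold.

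**Figure D2:**
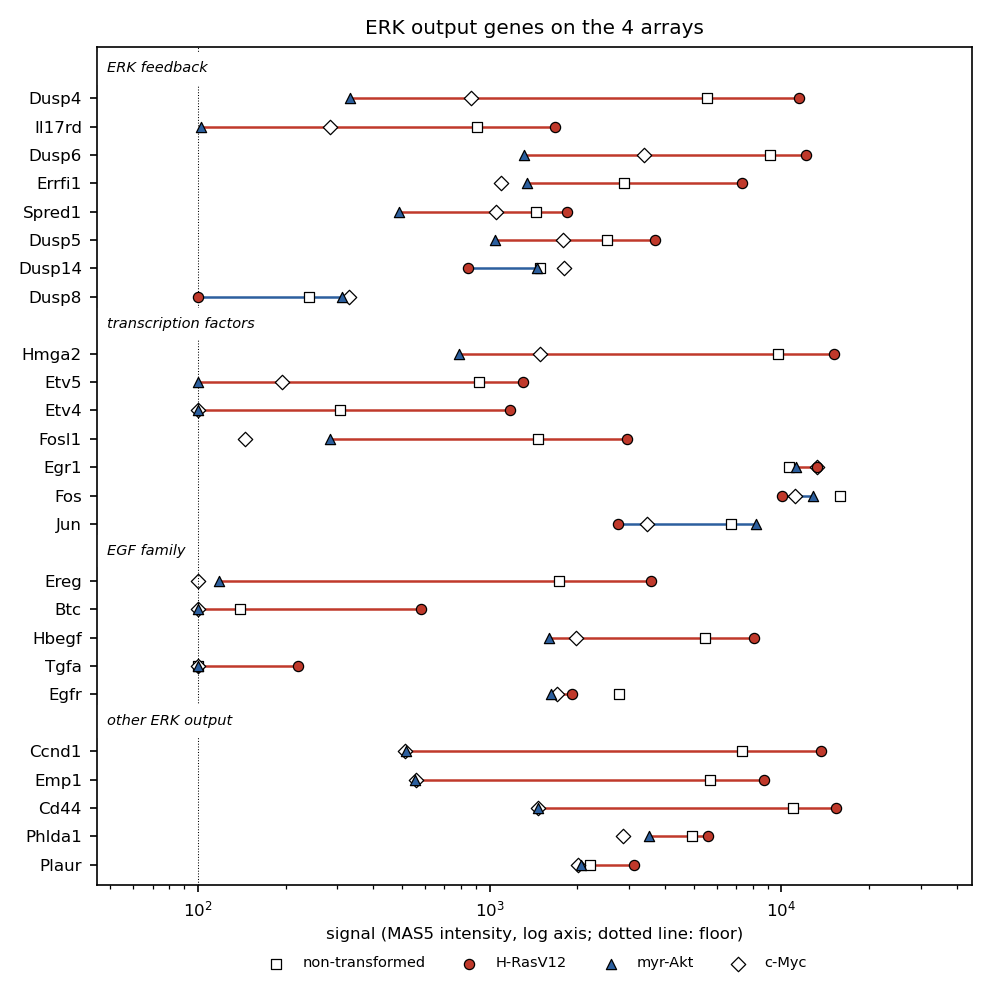
Signal on all 4 arrays (MAS5 intensity, log axis; values below the floor drawn on the dotted line) of ERK feedback genes, ERK-induced transcription factors, EGF family genes and other ERK output; each row is a gene, the line joins the H-RasV12 and myr-Akt arrays and is red where H-RasV12 is higher. Dusp4, Ereg and Ccnd1 span the widest ranges, with non-transformed cells nearer to H-RasV12 than to myr-Akt, while Egr1, Fos and Egfr are drawn close together and the line of Jun is blue.

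AP-1 factors are dimers of Fos and Jun proteins, and the letters searched for them were TGANTCA, with any base allowed at N. Emp1 and the cytokine gene Il11, which read 1169 on the non-transformed array, 1399 on H-RasV12, 17.2 on myr-Akt and 3.4 on c-Myc, are shown because they differed widely and both hold these letters in the 250 bases before their start (RefSeq, GRCm38.p6), where capitals mark each match. The Emp1 window is chr6:135362681-135362930, + strand, with matches that begin 145 and 25 bases before the start, and the Il11 window is chr7:4778142-4778391, - strand, with 1 match 98 bases before it. Each of these genes has 2 starts in the promoter table, and 1 window is shown for each gene.
Emp1: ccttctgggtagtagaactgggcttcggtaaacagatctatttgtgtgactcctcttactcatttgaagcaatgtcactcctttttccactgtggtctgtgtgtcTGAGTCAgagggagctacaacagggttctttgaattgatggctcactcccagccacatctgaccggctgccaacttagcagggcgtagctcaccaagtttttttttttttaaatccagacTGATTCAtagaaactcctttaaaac
Il11: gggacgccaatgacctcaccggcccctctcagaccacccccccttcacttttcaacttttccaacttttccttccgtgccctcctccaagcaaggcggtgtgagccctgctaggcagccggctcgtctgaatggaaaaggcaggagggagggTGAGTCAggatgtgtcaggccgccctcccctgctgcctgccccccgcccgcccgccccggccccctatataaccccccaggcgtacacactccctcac
Searched on both strands, TGANTCA stood in 9.48% of the 791 higher genes with a promoter in the table, in 4.96% of the 363 lower genes, in 5.07% of the 8414 counted genes and in 7.82% of all 27025 promoters. Among all promoter starts in the table, 6.53% of the matches overlapped another of the motifs searched. TGANTCA stood in 0 of 18 ERK feedback genes and 0 of 16 ERK-induced transcription factor genes with a promoter. Among other ERK output genes, 2 of 7 higher members held it (Emp1 and Sphk1), as did 2 of 5 within 2-fold (Lif and Plaur). The ETS letters CCGGAAGT stood in 2.91% of the higher genes, 2.75% of the lower genes and 7.24% of the counted genes. The match is a description of letters and shows no binding.

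Upstream of ERK, 6 of 25 counted genes of RAS proteins, the ERK cascade and RAS regulators were higher (24%, against 9.73% of all genes) and 1 was lower, with a median of 0.48. The kinase genes lay close: Map2k1 0.34, Map2k2 0.13, Araf 0.45 and Braf -0.41, as did Nras (0.48). The RAS GTPase-activating genes Rasa3 (614, 1099, 244 and 263) and Rasa1 (1849, 2474, 1041 and 1177) were 4.51-fold and 2.38-fold higher on H-RasV12, and Nf1, another, was at 0.60. Rasgef1b, a guanine exchange factor gene, was at least 6.63-fold higher (663 against 42.8) and Rerg, a RAS-like growth inhibitor, at least 3.62-fold (362 against 2.3); both were higher on H-RasV12 than on the other 3 arrays. Rgl1, an effector that links RAS to RAL, was 2.05-fold lower (198 against 408).

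Genes of the PI3K and AKT pathway itself differed about as often as the rest. Of 23 counted, 2 were higher and 1 lower, with a median of 0.01. Phlpp1, a phosphatase that inactivates AKT, read 936 on the non-transformed array, 1569 on H-RasV12, 675 on myr-Akt and 1048 on c-Myc (2.32-fold), and Rictor, the defining subunit of mTORC2, 1152 on the non-transformed array, 1319 on H-RasV12, 594 on myr-Akt and 912 on c-Myc (2.22-fold). Pik3r3, a regulatory subunit of PI3K, read 319.8 on the non-transformed array, 316 on H-RasV12, 800.4 on myr-Akt and 316 on c-Myc and was the member higher on myr-Akt, 2.53-fold, at more than the signal of any other array. Akt1 (-0.04), Akt2 (-0.15), Mtor (0.02), Gsk3a (0.01), Gsk3b (-0.16), Pdpk1 (0.40), Tsc1 (-0.17) and Tsc2 (0.23) were within 2-fold, and so was the mTOR inhibitor Deptor (0.93).

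FOXO factors and genes they are known to induce were split. Of 23 counted, 3 were higher on H-RasV12, 6 were lower, and the median was -0.16. Pdk4, which shuts down pyruvate oxidation, read 1300.4 on the non-transformed array, 842 on H-RasV12, 45.1 on myr-Akt and 57.8 on c-Myc and was at least 8.42-fold higher. Selenop, a selenium carrier, read 7099 on the non-transformed array, 2209 on H-RasV12, 710.0 on myr-Akt and 1202 on c-Myc (3.11-fold), Irs2, an insulin receptor substrate, 933 on the non-transformed array, 1134 on H-RasV12, 481 on myr-Akt and 1246 on c-Myc (2.36-fold), and Txnip, which restrains glucose uptake, stood at 0.96. These 3 were lowest on the myr-Akt array, whereas Pdk4 was low on myr-Akt and c-Myc alike.

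Other members were higher on myr-Akt. Depp1, an autophagy regulator, read 90.6 on the non-transformed array, 59.4 on H-RasV12, 973 on myr-Akt and 1081 on c-Myc (at least 9.73-fold lower on H-RasV12), so myr-Akt and c-Myc stood together. Sesn1 (2.3-fold lower), Cat, the catalase gene (2.07-fold), and Gadd45a (2.03-fold) lay lower on H-RasV12, as did the factors Foxo3 (465 against 1054) and Foxo4 (254 against 523), both under 2-fold when probe sets were averaged. Foxo1 (0.04), Insr (-0.00), Cdkn1b (-0.16), Ccng2 (-0.41), Bcl2l11 (-0.36), Sod2 (-0.72), Bcl6 (0.27) and Cited2 (0.28) were within 2-fold.

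Insulin-like growth factor genes differed in both directions (4 of 13 higher, 3 lower). Igf2, the fetal growth factor, read 3975 on the non-transformed array, 621 on H-RasV12, 8384 on myr-Akt and 16943 on c-Myc, so H-RasV12 was lowest and 13.5-fold below myr-Akt. Igfbp5, which binds IGFs in the matrix, read 18.3 on the non-transformed array, 76.9 on H-RasV12, 4052 on myr-Akt and 236 on c-Myc, above the floor on myr-Akt and c-Myc, and was at least 40.5-fold lower on H-RasV12. Their further probe sets gave little: that of Igf2 was under the floor on both arrays, and that of Igfbp5 gave -0.33 at a signal of 125 on myr-Akt. Igfbp2 read 8261 on the non-transformed array, 625 on H-RasV12, 4242 on myr-Akt and 3485 on c-Myc (6.79-fold lower). Igf1r, the receptor gene, was instead 2.95-fold higher on H-RasV12 (3429, 3743, 1268 and 3286), with myr-Akt lowest, and Igfbp7 (11161 against 2413) and Igfbp3 (1322 against 536) were 4.62-fold and 2.47-fold higher; averaged over probe sets, Igf1r stood at 0.81 and Igfbp7 at 0.93.

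Growth machinery was lower on H-RasV12 in most members and past 2-fold in few; of all 10267 counted genes, 5208 were lower by any amount. Of 44 genes of ribosome biogenesis and other known MYC targets, 43 had a lower signal on H-RasV12, with a median of -0.49, 1 was 2-fold lower and 0 higher. Ncl, which encodes nucleolin, read 13159 on the non-transformed array, 18959.6 on H-RasV12, 22048 on myr-Akt and 22269.6 on c-Myc (-0.22), and Fbl, the rRNA methyltransferase fibrillarin, 5364 on the non-transformed array, 8924 on H-RasV12, 12537 on myr-Akt and 12359 on c-Myc (-0.49). Both oncogene arrays were above the non-transformed one, with H-RasV12 between it and myr-Akt. Tfrc, the transferrin receptor gene, read 1691 on the non-transformed array, 3824 on H-RasV12, 6649 on myr-Akt and 4836 on c-Myc (-0.80), and Rrs1, a ribosome assembly factor, was the member past 2-fold (-1.02); it fell to -0.80 without probe sets that can bind several transcripts. The summed signal of the list was 119014 in non-transformed cells, 178354 on H-RasV12, 238324 on myr-Akt and 228723 on c-Myc. The median stayed between -0.49 and -0.40 under the 10 alternatives.

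Proliferation lists had medians of the same sign, nearer to 0. DNA replication genes had 32 of 38 members lower on H-RasV12 (median -0.30; 0 past 2-fold higher, 1 lower), and mitosis genes 25 of 29 (median -0.30, 0 past 2-fold either way). E2f2, a transcription factor of S-phase entry, was the replication member past 2-fold (83.2, 161, 599 and 376; -1.89). Mcm5 of the replicative helicase read 2967 on the non-transformed array, 4726 on H-RasV12, 6713 on myr-Akt and 6543 on c-Myc (-0.51) and the cyclin A gene Ccna2 3299 on the non-transformed array, 4343 on H-RasV12, 6753 on myr-Akt and 6724 on c-Myc (-0.64). Nucleotide and one-carbon synthesis had a median of -0.32 with 0 higher and 0 lower of 24. The largest differences were in Psph of serine synthesis (-0.95) and Mthfd2 of the mitochondrial folate cycle (3344, 3705, 6229.8 and 3753; -0.75).

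Genes of oxidative phosphorylation and mitochondrial regulators had a median of -0.20, with 27 of 31 lower on H-RasV12 and 1 past 2-fold. That gene was a regulator and no subunit of the respiratory chain: Ppargc1b, a coactivator of mitochondrial biogenesis, at 145 on the non-transformed array, 134 on H-RasV12, 908 on myr-Akt and 957 on c-Myc (6.76-fold lower), which was high on myr-Akt and c-Myc and low in non-transformed cells. Within the MYC network, Myc itself was the one member past 2-fold (1.45), higher on H-RasV12, and its relative Mycn read 25881 on the non-transformed array, 23651 on H-RasV12, 26244 on myr-Akt and 23749.6 on c-Myc (-0.15, and -0.18 by a further probe set). Max (-0.32), Mnt (0.03) and Mxd4 (0.34) were within 2-fold.

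G1 regulators were uneven, with 4 of 17 higher, 2 lower and a median of -0.01. Beside Ccnd1, the CDK inhibitors Cdkn2b (4539, 4598, 1161 and 1203), Cdkn1a (455, 586, 205 and 60.3) and Cdkn2a (5697, 5037, 2381 and 3231) were 3.96-fold, 2.86-fold and 2.12-fold higher on H-RasV12, and the H-RasV12 array was close to the non-transformed one for each. Cdkn1c, the imprinted inhibitor p57, was the reverse, at 103 on the non-transformed array, 91.1 on H-RasV12, 1016 on myr-Akt and 467 on c-Myc (at least 10.2-fold lower). Ccnd2 (0.85), Ccnd3 (0.74), Cdk6 (0.61), Cdk4 (-0.22), Ccne1 (-0.57) and Ccne2 (-0.59) were within 2-fold. Rb1 (146 against 363) was 2.5-fold lower by its main probe set and under 2-fold when its probe sets were averaged.

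Genes known as p53 targets still differed between these p53-/- cultures: 5 of 17 were higher, 4 lower, median -0.42. Pmaip1 (Noxa), a BH3-only killer protein, read 456 on the non-transformed array, 50.3 on H-RasV12, 1608 on myr-Akt and 1609 on c-Myc, under the floor on H-RasV12 alone and at least 16.1-fold lower there. Btg2, an antiproliferative gene, read 4196 on the non-transformed array, 804 on H-RasV12, 3114 on myr-Akt and 2831 on c-Myc (3.87-fold lower). Higher on H-RasV12 were Ak1, an adenylate kinase (5.9-fold; 1427 against 242), the desmosomal gene Perp (5.08-fold; 521 against 102) and Phlda3, an AKT inhibitor (3.88-fold; 1506 against 388), and Mdm2 was at -0.04. In the BCL2 family, the survival gene Bcl2 read 582 on the non-transformed array, 1244 on H-RasV12, 145 on myr-Akt and 176 on c-Myc and was 8.58-fold higher, while Bmf, a BH3-only gene, was at least 4.24-fold lower (93.1 against 424). Bcl2l1 (0.72) and Mcl1 (-0.00) were within 2-fold, and the family as a whole had 1 of 12 higher and 2 lower.

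Sterol and fatty acid synthesis genes were lower on H-RasV12 in 24 of 27 members, with a median of -0.59, 3 past 2-fold and 0 higher. Those past 2-fold were Fads2, a fatty acid desaturase (2671, 1124, 2957 and 2438; -1.40), Stard4, a sterol carrier (1077, 906, 2264 and 1823; -1.32), and Dhcr7, which makes cholesterol in the last step of its synthesis (497, 511, 1178 and 932; -1.20). Lss (-0.99), Nsdhl (-0.99), Pmvk (-0.98) and Hmgcs1 (4624, 3886, 7062 and 5568; -0.86) came close. For Dhcr7, Lss and Hmgcs1, H-RasV12 was near the non-transformed value and myr-Akt was the highest array. The fatty acid synthase gene Fasn (-0.06), Scd1 (0.23), Srebf1 (0.19) and Insig1 (0.11) were nearly level.

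Glycolysis and hypoxia genes were split (4 of 24 higher, 3 lower, median 0.04). Hk1, a hexokinase, read 1514 on the non-transformed array, 1883 on H-RasV12, 319 on myr-Akt and 140.1 on c-Myc (5.9-fold higher), Pfkfb4, which tunes phosphofructokinase, 622 on the non-transformed array, 899 on H-RasV12, 156 on myr-Akt and 112 on c-Myc (5.77-fold), and Pdk1, a pyruvate dehydrogenase kinase, was 3.58-fold higher. Pfkl, the liver phosphofructokinase gene, was 2.31-fold higher (969.8 against 421). Aldoc, a brain-type aldolase, went the other way at 401 on the non-transformed array, 398 on H-RasV12, 1722 on myr-Akt and 2911 on c-Myc (4.32-fold lower), as did Egln3, an oxygen sensor (3.89-fold), and Pfkfb3 (2.46-fold). Other glycolysis genes were within 2-fold, among them Ldha 0.28, Pgk1 0.31, Aldoa -0.17, Hk2 0.27 and the glucose transporter Slc2a1 0.08. Of 17 amino acid transporters, 0 were higher and 2 lower, Slc1a4 (259 against 744; -1.52) and the glutamine carrier Slc1a5 (655 against 1565; -1.26); Slc7a5, the leucine carrier, was at -0.96.

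Genes of the ATF4 and unfolded protein response were lower on H-RasV12 in 9 of 23 members and higher in 0, against 4.56% and 9.73% of all genes, with a median of -0.41. ATF4 is a transcription factor whose translation increases under amino acid shortage or endoplasmic reticulum stress and through mTORC1. Atf3, a stress-induced repressor, read 1134 on the non-transformed array, 317 on H-RasV12, 3372 on myr-Akt and 1959 on c-Myc, and Chac1, which breaks down glutathione, 1734 on the non-transformed array, 1044 on H-RasV12, 3689.7 on myr-Akt and 1345 on c-Myc. For both, myr-Akt was highest and H-RasV12 lowest, a 10.6-fold and a 3.53-fold gap. Fgf21, a secreted metabolic hormone, read 69.7 on the non-transformed array, 13.7 on H-RasV12, 1001 on myr-Akt and 109 on c-Myc, well above the floor on myr-Akt alone (at least 10.0-fold). Herpud1, of endoplasmic reticulum protein degradation, read 1210.4 on the non-transformed array, 930.0 on H-RasV12, 3508 on myr-Akt and 1524 on c-Myc (3.77-fold), Ddit3 (CHOP), a stress factor, 1806 on the non-transformed array, 1153 on H-RasV12, 3553 on myr-Akt and 1444 on c-Myc (3.08-fold), and Trib3, a pseudokinase that binds AKT, 731 on the non-transformed array, 404 on H-RasV12, 1339.7 on myr-Akt and 293 on c-Myc (3.32-fold).

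Nupr1 (3.52-fold), the mTORC1 inhibitor Ddit4 (2.78-fold) and Sesn2 (2.39-fold) completed the lower members. For Nupr1 the non-transformed array was the highest (3562, 326, 1147 and 454). Chaperones of the endoplasmic reticulum did not share the difference: Hspa5 (BiP) read 20479.7 on the non-transformed array, 21447 on H-RasV12, 23469 on myr-Akt and 19337 on c-Myc (-0.13), Hsp90b1 was at -0.01 and Pdia4 at 0.01. Atf4 itself stood at -0.37 and Asns, asparagine synthetase, at -0.56.

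The composite element TGATGNAA is the letter pattern that ATF4 binds together with a C/EBP partner. It was found, on either strand, in the 250 bases before the start of 5 of the 9 lower list members with a promoter in the table (Atf3, Chac1, Fgf21, Herpud1 and Nupr1) and of 2 of the 12 within 2-fold (Asns and Vldlr). In the list as a whole that is 33.3% of 21 genes, against 2.29% of counted genes and 3.91% of all promoters, and 2.96% of all matches overlapped another motif searched. The list gathers genes of this response, so its share of these letters is no result of the contrast, and the letters show no binding. Chac1 (chr2:119350992-119351241, + strand), Fgf21 (chr7:45615491-45615740, - strand) and Herpud1 (chr8:94386179-94386428, + strand) are shown because each held the same 8 letters on the reverse strand, TTGCATCA, in capitals below (RefSeq, GRCm38.p6), beginning 193, 139 and 112 bases before the start.
Chac1: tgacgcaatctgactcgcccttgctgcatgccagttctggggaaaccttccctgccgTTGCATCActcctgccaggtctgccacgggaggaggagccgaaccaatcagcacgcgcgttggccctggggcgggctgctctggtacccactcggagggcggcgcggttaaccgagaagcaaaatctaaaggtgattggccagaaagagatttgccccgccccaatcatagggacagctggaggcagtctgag
Fgf21: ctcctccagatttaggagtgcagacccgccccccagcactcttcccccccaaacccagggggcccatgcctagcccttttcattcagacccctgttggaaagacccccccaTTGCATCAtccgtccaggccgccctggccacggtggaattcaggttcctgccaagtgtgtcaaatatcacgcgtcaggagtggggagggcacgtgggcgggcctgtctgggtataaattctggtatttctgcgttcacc
Herpud1: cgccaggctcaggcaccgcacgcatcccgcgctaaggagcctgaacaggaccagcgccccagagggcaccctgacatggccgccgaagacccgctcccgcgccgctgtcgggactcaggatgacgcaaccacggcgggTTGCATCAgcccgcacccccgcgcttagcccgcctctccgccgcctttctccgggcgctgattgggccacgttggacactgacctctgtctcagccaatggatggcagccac
Their log2 differences were -1.82 for Chac1, -3.32 for Fgf21 (a bound) and -1.92 for Herpud1.

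NRF2 targets and glutathione enzymes were lower on H-RasV12 in 5 of 26 members and higher in 1 (median -0.30). The lower members were glutathione transferases and detoxifying enzymes: Gstm1 (905, 790.5, 3739.7 and 2785; 4.73-fold), Gstm2 (3.19-fold), Mgst1 (2.51-fold, under 2-fold when probe sets were averaged), Hmox1, the haem oxygenase (1014, 1065, 2217 and 902; 2.08-fold), and Ephx1 (2.02-fold). Nqo1 (-0.47), Srxn1 (-0.45), Txnrd1 (-0.23) and Gclc (-0.37), which are typical NRF2 targets, were within 2-fold. Ugdh, which makes UDP-glucuronate, was 2.93-fold higher (8196 against 2794).

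**Figure D3:**
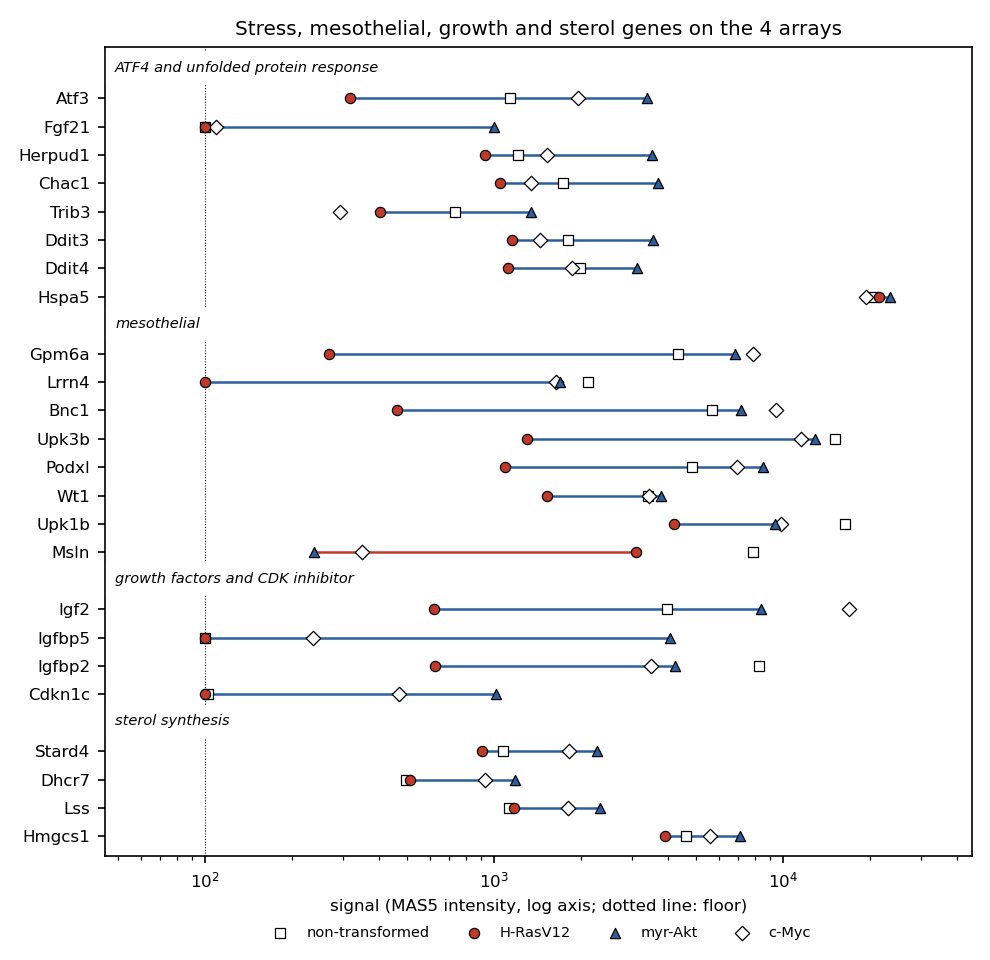
Signal on all 4 arrays (MAS5 intensity, log axis; values below the floor drawn on the dotted line) for genes of the ATF4 and unfolded protein response, mesothelial markers, growth factor genes with Cdkn1c, and sterol synthesis; each row is a gene and the line joins the H-RasV12 and myr-Akt arrays, blue where myr-Akt is higher. Atf3, Fgf21 and Herpud1 are highest on myr-Akt, the mesothelial genes other than Msln are lowest on H-RasV12, and Hspa5 hardly differs.

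Liver genes mark the lineage named in the labels. Of those with a probe set, 18 were under the floor on both arrays, 11 were above it on H-RasV12 only and 5 on both. Of 34 hepatoblast and hepatocyte genes with a probe set, 16 were counted, of which 5 were at least 2-fold higher and 1 lower, and 11 of these were above the floor on H-RasV12 only, so their difference is a bound and could not have been negative. Apoa1, the main apolipoprotein of HDL, read 638 on the non-transformed array, 4299.7 on H-RasV12, 4.9 on myr-Akt and 1.5 on c-Myc (at least 43-fold). Rbp4, the retinol carrier, read 276 on the non-transformed array, 674 on H-RasV12, 84.5 on myr-Akt and 44 on c-Myc (at least 6.74-fold), Afp, alpha-fetoprotein, 13 on the non-transformed array, 568 on H-RasV12, 43.6 on myr-Akt and 6.4 on c-Myc (at least 5.68-fold; 0.83 on the log2 scale when its probe sets were averaged) and Ttr, transthyretin, 11.1 on the non-transformed array, 476 on H-RasV12, 10.8 on myr-Akt and 6.1 on c-Myc (at least 4.76-fold). Alb and Hnf4a, defining genes of hepatocytes, were above the floor only on H-RasV12, at 168 and 169. Foxa2, a liver pioneer factor, was above the floor on every array (2821, 4169, 3082 and 1472; 0.44), and Gpc3, a glypican of fetal liver, was the lower member at 3576 on the non-transformed array, 312 on H-RasV12, 1889 on myr-Akt and 3904 on c-Myc (6.06-fold). In RNA of a whole culture, fewer cells of a type and less RNA per cell cannot be told apart, here and for every list of cell markers.

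Biliary and progenitor genes had 2 of 13 higher and 1 lower (median 0.23). Sox9, a duct and progenitor factor, read 388 on the non-transformed array, 779 on H-RasV12, 28.4 on myr-Akt and 36.6 on c-Myc (at least 7.79-fold) and the duct keratin Krt19 2322 on the non-transformed array, 3786 on H-RasV12, 1493 on myr-Akt and 1804 on c-Myc (2.54-fold). Hes1, a Notch target, was 2.26-fold lower (1815 against 4098), Krt7 was at 0.19, and Epcam was under the floor on H-RasV12 (74.9 against 179).

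Epithelial genes were higher on H-RasV12 in 10 of 21 counted members and lower in 3. Their median was 0.73, but -0.01 over the members above the floor on both arrays, since 9 were seen on H-RasV12 only. Krt18, a keratin of simple epithelia, read 3689.7 on the non-transformed array, 10745 on H-RasV12, 321 on myr-Akt and 337 on c-Myc, and its partner Krt8 601 on the non-transformed array, 3441 on H-RasV12, 35.2 on myr-Akt and 48.8 on c-Myc. They were 33.4-fold and at least 34.4-fold higher, and H-RasV12 was the highest of the 4 arrays for each. Pkp1, of desmosomes (at least 5.37-fold; 537 against 1.7), Cdh17, a liver-intestine cadherin (at least 3.85-fold; 385 against 10.5), and Cdh1, E-cadherin (at least 2.6-fold; 260.2 against 50.9), were under the floor on myr-Akt. Cgn, cingulin of tight junctions (at least 5.41-fold lower; 64.6 against 541), Dsg2, a desmosomal cadherin (3.81-fold lower; 289 against 1099.8), and F11r, a junctional adhesion molecule (2619.9 against 5244), were higher on myr-Akt.

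Of 24 mesenchymal genes counted, 8 were higher on H-RasV12 (33.3%, against 9.73% of all genes) and 2 lower (8.33%, against 4.56%), with a median of 0.70. Prrx1, a homeobox factor of mesenchyme, read 1932 on the non-transformed array, 3046 on H-RasV12, 231 on myr-Akt and 98.7 on c-Myc (13.2-fold), Twist1 987 on the non-transformed array, 1164 on H-RasV12, 208 on myr-Akt and 748 on c-Myc (5.61-fold) and Snai2 (Slug) 2382 on the non-transformed array, 2982 on H-RasV12, 563 on myr-Akt and 365 on c-Myc (5.3-fold; 0.42 on the log2 scale without probe sets that can bind several transcripts). Thy1, a fibroblast surface protein, was at least 8.56-fold higher (856 against 22.2). Simple keratins and these mesenchymal factors were thus both higher on H-RasV12. Vim (0.81), Fn1 (0.90), Cdh2 (0.55), Zeb1 (0.38) and Sparc (-0.26) lay within 2-fold, and with Dcn the matricellular gene Postn (8.3 against 470.4) was lower.

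Collagen genes differed chain by chain (9 of 29 higher, 5 lower, median 0.28). Collagen VI was lower on H-RasV12: Col6a1 read 4198 on the non-transformed array, 652 on H-RasV12, 8128 on myr-Akt and 4681 on c-Myc (12.5-fold) and Col6a2 2231 on the non-transformed array, 268 on H-RasV12, 5900.2 on myr-Akt and 1606 on c-Myc (22-fold), both highest on myr-Akt. Col3a1, a fibrillar chain, was 2.88-fold lower (20989, 5255, 15137 and 11166). Chains that were higher included Col7a1, of anchoring fibrils (582, 1182, 114 and 42.3; 10.3-fold), Col18a1 (1216, 1387, 174 and 274; 7.97-fold) and Col15a1 (at least 7.38-fold; 738 against 7.0), with the crosslinking enzyme Loxl3 (7.96-fold; 937 against 118). Col1a1 (0.44), Col1a2 (0.47), Col4a1 (0.46), Col4a2 (0.46) and Lox (-0.01) were within 2-fold.

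Smooth muscle contractile genes had 5 of 12 higher and 0 lower (median 0.71). Myl9, a myosin light chain, read 9849 on the non-transformed array, 4284 on H-RasV12, 1295 on myr-Akt and 1528 on c-Myc (3.31-fold), Cnn1, calponin, 5604 on the non-transformed array, 2328 on H-RasV12, 873 on myr-Akt and 1187 on c-Myc (2.67-fold) and Cnn2 13956 on the non-transformed array, 16595 on H-RasV12, 6759 on myr-Akt and 6383 on c-Myc (2.46-fold). For Myl9 and Cnn1 non-transformed cells were highest, and for Cnn2 H-RasV12 was. Acta2, smooth muscle actin, was high on every array (33456, 26471, 19539 and 25390.4; 0.44).

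Extracellular proteases and their inhibitors had 10 of 18 members higher and 2 lower, with a median of 1.40 that ran from 0.79 (genes above the floor on at least 1 of the 4 arrays) to 1.43 under the alternatives. Mmp23 read 1049 on the non-transformed array, 1108 on H-RasV12, 119.7 on myr-Akt and 100.1 on c-Myc (9.26-fold), Adam19 2229 on the non-transformed array, 2711 on H-RasV12, 343 on myr-Akt and 110.2 on c-Myc (7.9-fold) and Plat, tissue plasminogen activator, 1510.1 on the non-transformed array, 2352 on H-RasV12, 331 on myr-Akt and 389 on c-Myc (7.11-fold). Timp1, an inhibitor of metalloproteases, was higher with them at 13086 on the non-transformed array, 15433 on H-RasV12, 2126 on myr-Akt and 3007 on c-Myc (7.26-fold), as was Timp2 (3.27-fold), and Mmp2, gelatinase A, was 6.7-fold higher (2405 against 359). Adamts1 (2.42-fold) and Adamts5 (2.41-fold), which cleave proteoglycans, were lower.

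Integrins and basement membrane glycoproteins had 7 of 17 higher and 1 lower (median 0.86). Itga6, a laminin receptor subunit, read 1520.3 on the non-transformed array, 3483 on H-RasV12, 452 on myr-Akt and 500.3 on c-Myc (7.7-fold), Itgb3, a vitronectin receptor subunit, 839.8 on the non-transformed array, 1744 on H-RasV12, 278 on myr-Akt and 172 on c-Myc (6.28-fold), and Itga5, a fibronectin receptor subunit, 988 on the non-transformed array, 1221 on H-RasV12, 209 on myr-Akt and 229 on c-Myc (5.85-fold). The nidogens, which link laminin to collagen IV, were opposed: Nid1 read 14087 on the non-transformed array, 16995 on H-RasV12, 2223 on myr-Akt and 2000.1 on c-Myc (7.65-fold higher) and Nid2 3259 on the non-transformed array, 232 on H-RasV12, 2029 on myr-Akt and 4781 on c-Myc (8.74-fold lower).

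Of 29 TGF-beta and YAP pathway genes, 10 were higher and 2 lower (median 0.41). Ligands were opposed: Tgfb1 read 1119.6 on the non-transformed array, 1798 on H-RasV12, 50.8 on myr-Akt and 126 on c-Myc (at least 18-fold higher), Inhba, the activin A chain, 1152 on the non-transformed array, 1938 on H-RasV12, 184 on myr-Akt and 149.6 on c-Myc (10.5-fold higher), and Tgfb2 1397 on the non-transformed array, 434 on H-RasV12, 2457 on myr-Akt and 1859 on c-Myc (5.67-fold lower). The receptors Tgfbr1 (4709, 9409, 2387 and 2577; 3.94-fold) and Tgfbr2 (3236, 3144, 1050.2 and 1114; 2.99-fold) were higher on H-RasV12. Among targets, Tgfbi was at least 30.5-fold higher (3053 against 73.2) and Ankrd1, a YAP target, 7.37-fold (10007, 16257, 2206 and 1586), while the YAP targets Ccn1 (-0.42) and Ccn2 (0.74) and the inhibitory Smad7 (-0.46) were within 2-fold and Gadd45b was 3.94-fold lower. Yap1 (0.17), Wwtr1 (0.37) and Tead1 (0.47) were nearly level. A further probe set of Tgfb1 gave 0.45.

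Secreted WNT regulators and WNT targets differed in both directions. The Dickkopf genes, most of which block WNT co-receptors, were on the H-RasV12 side: Dkk1 read 2688 on the non-transformed array, 1621 on H-RasV12, 30.7 on myr-Akt and 24.6 on c-Myc (at least 16.2-fold), Dkk3 506 on the non-transformed array, 838 on H-RasV12, 21.5 on myr-Akt and 11.5 on c-Myc (at least 8.38-fold) and Dkk2 was at least 3.4-fold higher. Wnt5a (1099.6, 1653, 315 and 86.6; 5.25-fold), Wnt10a (at least 3.97-fold) and Wnt4 (2.38-fold) were higher too. The R-spondin genes Rspo1 and Rspo3, whose products amplify WNT signals, were lower: Rspo1 read 3676 on the non-transformed array, 79.8 on H-RasV12, 1101 on myr-Akt and 3428 on c-Myc (at least 11-fold) and Rspo3 295 on the non-transformed array, 103 on H-RasV12, 1350.2 on myr-Akt and 417 on c-Myc (13.1-fold). A further probe set of Rspo3 gave -0.07, at signals of 12.2 and 104.9. In all 7 of 18 members were higher and 3 lower, with Znrf3 (557 against 1146, 2.06-fold) the remaining lower member. Of the 18, 7 were above the floor on H-RasV12 only and 2 on myr-Akt only. The median was 0.26 over all counted and -0.07 over the 9 above the floor on both arrays. Guidance genes had 6 of 33 higher, led by the netrin gene Ntn4 (6.47-fold; 833 against 129) and the ephrin gene Efnb2 (5.23-fold; 5471 against 1047), and 4 lower, led by the semaphorin gene Sema3d (at least 10.0-fold; 84.1 against 1005) and Efna2 (4.63-fold; 142 against 657).

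Interferon response genes were higher on H-RasV12 in 10 of 18 counted members and lower in 0 (median 1.15). Of these 18, 7 were above the floor on H-RasV12 only, so their difference could not have been negative. Over the 11 above it on both arrays the median was 1.08. Ifi27 read 3580.4 on the non-transformed array, 2311 on H-RasV12, 159 on myr-Akt and 67.4 on c-Myc (14.5-fold), Rsad2 (viperin), an antiviral enzyme, 579 on the non-transformed array, 699 on H-RasV12, 152 on myr-Akt and 5.7 on c-Myc (4.6-fold), Ifit1, which binds foreign RNA, 1056 on the non-transformed array, 470.2 on H-RasV12, 56.3 on myr-Akt and 14.3 on c-Myc (at least 4.7-fold) and Xaf1 1975 on the non-transformed array, 876 on H-RasV12, 50.2 on myr-Akt and 1.3 on c-Myc (at least 8.76-fold). Apart from Rsad2 these were highest in non-transformed cells, so H-RasV12 stood between them and myr-Akt. Irgm1, an interferon-induced GTPase, showed the same order (1361, 342, 129.5 and 128; 2.64-fold). The antigen presentation genes B2m (0.34) and Tapbp (-0.48) were within 2-fold, and Irf1 was at -0.65.

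The interferon-stimulated response element has the core GAAA, any 2 letters, GAAA, which the factors STAT and IRF9 bind as a complex. Of 16 counted list members with a promoter in the table, 7 (43.8%) held these letters on either strand in the 250 bases before the start: 3 of the 8 higher members (Ifit1, Irgm1 and Rsad2) and 4 of the 8 within 2-fold (B2m, Bst2, Ifit3 and Igtp). The share was 2.82% of counted genes and 3.46% of all promoters, and 0.865% of matches overlapped another motif. Here too the list gathers genes of the response, so its share is no result of the contrast, and the letters show no binding. Ifit1 (chr19:34640639-34640888, + strand) and Irgm1 (chr11:48871421-48871670, - strand) are shown because each held 2 copies (capitals; RefSeq, GRCm38.p6). They begin 104 and 85 bases before the start of Ifit1 and, overlapping each other, 30 and 24 bases before that of Irgm1.
Ifit1: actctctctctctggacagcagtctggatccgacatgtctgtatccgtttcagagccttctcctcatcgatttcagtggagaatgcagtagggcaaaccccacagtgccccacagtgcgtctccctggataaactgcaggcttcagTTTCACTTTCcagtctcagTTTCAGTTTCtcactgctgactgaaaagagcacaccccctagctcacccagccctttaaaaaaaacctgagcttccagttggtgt
Irgm1: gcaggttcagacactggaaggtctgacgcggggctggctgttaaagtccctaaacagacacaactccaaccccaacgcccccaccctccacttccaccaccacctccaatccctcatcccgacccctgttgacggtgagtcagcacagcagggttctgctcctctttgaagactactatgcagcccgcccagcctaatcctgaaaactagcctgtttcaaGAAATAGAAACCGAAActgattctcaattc
The presence of the letters did not separate the higher members from those within 2-fold.

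Cytokine and chemokine genes went both ways, 7 of 16 higher and 6 lower; the median was 0.69 over all counted and -0.49 over those above the floor on both arrays. Il33, an alarmin of barrier cells, read 8515 on the non-transformed array, 21389 on H-RasV12, 767 on myr-Akt and 119 on c-Myc (27.9-fold), Cx3cl1, a membrane-bound chemokine, 552 on the non-transformed array, 2057 on H-RasV12, 26.4 on myr-Akt and 36.4 on c-Myc (at least 20.6-fold), and Il11 was at least 14-fold higher. H-RasV12 was the highest array for all 3. Clcf1, another ligand of gp130 receptors, was 3.96-fold higher (859.9 against 217). The chemokines Cxcl1 (1889, 321, 1848 and 2204; 5.76-fold), Ccl20 (at least 5.03-fold; 83 against 503) and Ccl2 (5482, 1066, 4692 and 4057; 4.4-fold) and the cytokine Il18 (3.1-fold) were lower on H-RasV12. The acute-phase genes Saa3 (7786, 221, 3169 and 4052; 14.3-fold) and Hp, haptoglobin (at least 4.31-fold; 24.3 against 431), were lower with them. They were the lower members of a list of complement and acute-phase genes, of which 4 of 13 were counted; the other counted members, C1s1 (130.5 against 83.5) and Serping1 (127 against 27.1), were under the floor on myr-Akt and within 2-fold.

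Markers of other cell types were read as whole lists. Mesothelial markers, genes of the lining of the liver and body cavity, were lower on H-RasV12 in 7 of 9 members and higher in 1, with a median of -2.96. Their summed signal was 60199.5 in non-transformed cells, 12035 on H-RasV12, 50512 on myr-Akt and 51159 on c-Myc. Gpm6a read 4314 on the non-transformed array, 268 on H-RasV12, 6812 on myr-Akt and 7852 on c-Myc (25.4-fold), Bnc1, a zinc-finger factor, 5656 on the non-transformed array, 462 on H-RasV12, 7161 on myr-Akt and 9469.7 on c-Myc (15.5-fold), Upk3b 15167 on the non-transformed array, 1299 on H-RasV12, 12838 on myr-Akt and 11557 on c-Myc (9.88-fold) and Lrrn4 2121 on the non-transformed array, 81.7 on H-RasV12, 1688 on myr-Akt and 1644 on c-Myc (at least 16.9-fold). H-RasV12 stood below all 3 other arrays for each of them. Podxl (7.8-fold), Wt1, a transcription factor of the mesothelium (3419, 1529, 3771 and 3438; 2.47-fold), and Upk1b (2.24-fold) were lower by less, and Muc16 was under the floor on H-RasV12 (27.4 against 113).

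Msln, mesothelin, was the member that went the other way, at 7837 on the non-transformed array, 3096 on H-RasV12, 238 on myr-Akt and 348 on c-Myc (13-fold higher on H-RasV12). The summed mesothelial signal was low on the same array as Dcn, Col6a1, Rspo1, Saa3 and Igfbp2, and its part in those differences was not tested. Stellate markers had 5 of 10 members counted, 3 higher and 0 lower, with a summed signal of 3322 on H-RasV12, 1329 on myr-Akt and 4689.6 in non-transformed cells. Of the 5, 3 were above the floor on H-RasV12 only and could not have been lower, and 2 were above it on both arrays. Pdgfrb read 769.8 on the non-transformed array, 555 on H-RasV12, 60.8 on myr-Akt and 22.8 on c-Myc. Lrat, Gfap, Reln, Ngfr and Colec11 were under the floor on both arrays.

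Endothelial and blood markers were nearly absent. Of 11 endothelial genes 3 were counted, each under the floor on myr-Akt: Esam (337, 1596, 70.9 and 65), Flt1 (254 against 21.9) and Eng (124 against 80.6), while Pecam1, Cdh5, Kdr, Tek, Tie1, Emcn, Vwf and Erg were under it on both arrays. Of 11 leukocyte genes 3 were counted, Cd14 (530.0 against 148; 3.58-fold), Csf1r (145 against 119) and Cd68 (131 against 110.2), and Ptprc, Adgre1, Tyrobp and Spi1 were under the floor. Of 6 erythroid genes only Epor was above it, at 120.4 on H-RasV12.

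Imprinted growth genes had 3 of 13 higher and 6 lower. Beside Igf2 and Cdkn1c, the lower members were Ndn, necdin (854, 437, 2294 and 323; 5.25-fold), Nap1l5 (3.33-fold), Plagl1, a zinc-finger factor (7277, 4954, 12442 and 15323; 2.51-fold), and Peg3 (2.01-fold). The non-coding RNA gene Meg3 was the reverse, at 7749 on the non-transformed array, 6401 on H-RasV12, 959 on myr-Akt and 1122 on c-Myc (6.67-fold higher), with Nnat (3.03-fold) and Mest (2.68-fold). Plac1, a placental gene found in tumours, read 245 on the non-transformed array, 73.8 on H-RasV12, 3348 on myr-Akt and 2810.4 on c-Myc (at least 33.5-fold lower), and the Hox gene Hoxd8 read 309 on the non-transformed array, 32.4 on H-RasV12, 2118 on myr-Akt and 301 on c-Myc (at least 21.2-fold lower), with myr-Akt the highest array, while Hoxa9 was at least 3.97-fold higher (397 against 38.6) and 1 of 13 Hox genes in all was higher and 2 lower.

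**Figure D4:**
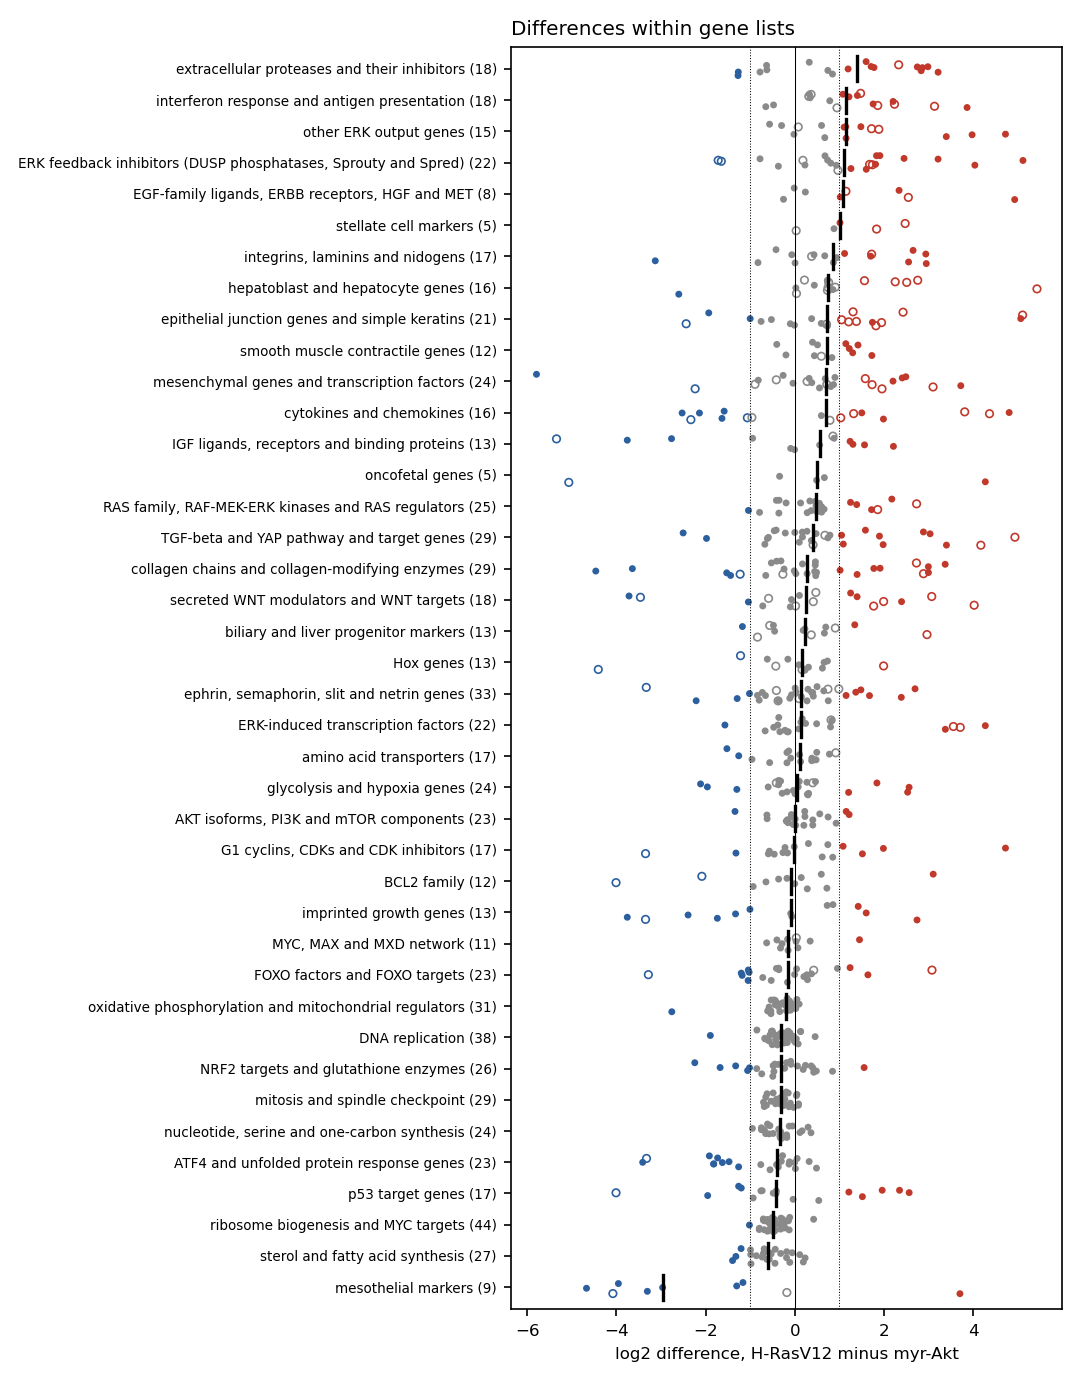
Log2 difference, H-RasV12 minus myr-Akt, of every counted member of each gene list with 5 or more such members (number in brackets), ordered by the list median (black bar); filled points were above the floor on both arrays, open points are bounds, and the dotted lines mark 2-fold. Medians run from 1.40 for extracellular proteases to -2.96 for mesothelial markers, at this floor. Those of replication (-0.30), mitosis (-0.30) and ribosome genes (-0.49) lie below 0, with single members down to -1.89, -0.70 and -1.02.

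The other 2 arrays, whose signals are not in the difference and served only in choosing each gene's probe set, were set beside it. Across 10008 genes counted in both, H-RasV12 minus myr-Akt and non-transformed minus c-Myc had a Pearson r of 0.66 and a Spearman rho of 0.63; this is across genes, which are not independent replicates, and the arrays share platform and scaling but no RNA sample. Of the 999 genes higher on H-RasV12, 635 (63.6%) were also at least 2-fold higher in non-transformed cells than in c-Myc cells and 1 was lower, where 11.4% and 4.68% of all genes were. Of the 468 lower genes, 126 (26.9%) were lower in non-transformed cells, against the same 4.68% of all genes, and 36 (7.69%) were higher, against 11.4%. Both sides of the contrast thus recurred in the other pair above its background, and whether they did so to a different degree was not tested.

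Single genes show both kinds. Il33 (6.16 in the other pair), Ereg (4.11), Ccnd1 (3.83) and Dusp4 (2.68) were higher in non-transformed than in c-Myc cells on the log2 scale. Dcn (0.43), Col6a2 (0.47) and Ank3 (-0.36) were within 2-fold in that pair. Plac1 (-3.52), Igf2 (-2.09) and Depp1 (-3.43) were lower in non-transformed cells.

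**Figure D5:**
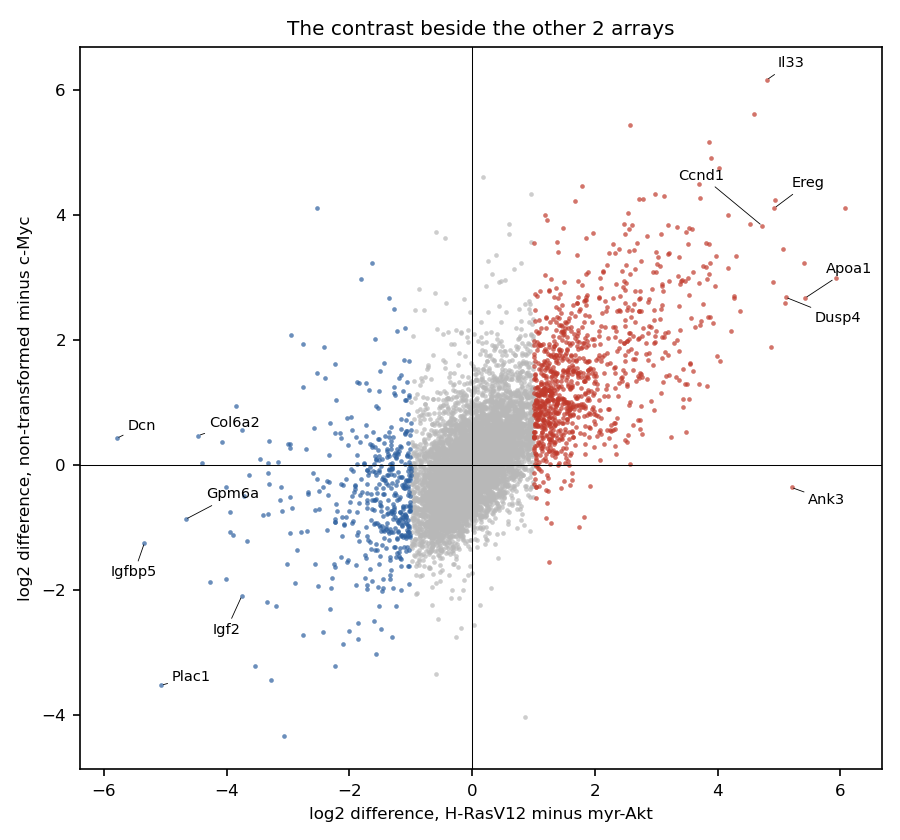
Log2 difference of each of 10008 genes between H-RasV12 and myr-Akt (horizontal) and between non-transformed and c-Myc (vertical), a pair of arrays whose signals are not in the first difference; red and blue mark genes at least 2-fold higher or lower on H-RasV12. Most red points lie above 0 on the vertical axis, whereas blue points scatter on both sides of it, with Dcn and Col6a2 just above 0 and Plac1 well below.

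A second probe set of the same gene was the only repeat measurement on these arrays. Of the genes past 2-fold, 898 had one: 634 differed in the same direction by it, 256 had it under the floor on both arrays and 8 differed the other way. Where it was above the floor on both arrays, 375 of 381 agreed in direction and 273 were past 2-fold as well. Across 4052 genes with 2 such probe sets, the SD between their log2 differences was 0.37 and the median gap 0.19, so gaps of that size between members lie within the spread of probe sets, which holds no spread between cultures.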

How the data were processed

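RNA of 4 cultures, 1 array each, was measured on Affymetrix mouse 430 2.0 arrays. The deposited values are linear intensities, 1 for each probe set; the submitters' processing notes name MAS5 as the tool the authors used, and each array has a trimmed mean (2% off each end) of 500.003. No genome build is given in the sources used here. Of 45101 probe sets, 34958 name 1 gene in the platform annotation, 932 several and 9211 none; control probe sets were left out. For each of 18193 genes one single-gene probe set stood in, the highest by its mean over the 4 arrays, values were floored at 100.001 (20% of the trimmed mean), and the log2 difference was H-RasV12 minus myr-Akt. A log2 difference of 1 or more either way counted as 2-fold, and no test was possible with 1 array in a group. MAS5 scales each array separately and a small signal is background-limited, so a shift of all genes together would not be seen and low values carry most error. The number of arrays limits the precision.

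The genes and the 44 gene lists were chosen with earlier results of these data known, so their counts are descriptions. Genes were named by rank within direction (15 above the floor on both arrays, 6 at the floor on 1) and within each list (up to 4 a direction). For the ERK feedback, ERK transcription factor, EGF, PI3K and FOXO lists, any member could be named. Further list members and the sex-linked genes were named after their values were seen. Motifs were searched on both strands of the 250 bases before each RefSeq start (GRCm38.p6), 11 motifs in all. Alternatives changed the floor, the filter, the probe set and the scaling. Python 3.11.15, numpy 2.4.6, pandas 2.3.3 and matplotlib 3.10.9 were used, and the calculation was tested on simulated data.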

Additional observations from a re-analysis of the deposited data

How the results depend on the processing

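The design has 1 array in a group, so nothing here measures the spread between cultures. No paired analysis was possible because each group has 1 array and the groups share fewer than 2 replicate numbers. Under 10 alternatives the count of genes higher on H-RasV12 ran from 698 (above the floor on both arrays) to 1292 (floor at 10%) and the count of lower genes from 334 (probe sets averaged) to 580 (floor at 10%), each within 1.5 times the main count. The share of called genes that were higher ran from 62.7% (quantile normalization) to 71.1%, and the correlation with the other pair from 0.64 to 0.68. Of 266 single genes, 203 were past 2-fold, and none of these 203 changed direction under the alternatives. Direction was not checked for the genes within 2-fold. Of the 203, 44 fell under 2-fold in at least 1 alternative. This was most often when probe sets were averaged (27), where a probe set under the floor enters as 0, or with the floor at 40% (18). Of the 44 list medians, 3 of those farther from 0 changed sign. Complement went from -0.88 to 0.11 with the floor at 10%. Epithelial genes went from 0.73 to -0.0082 and cytokines from 0.69 to -0.49 over genes above the floor on both arrays. That filter leaves out the members with bounds. Medians nearer to 0 also crossed it in at least 1 alternative. These were WNT regulators (0.26, down to -0.07), the BCL2 family (-0.09, up to 0.07) and imprinted genes (-0.09, up to 0.06). G1 regulators (-0.01, up to 0.30) and PI3K genes (0.01, down to -0.04) did so too. Signals under the floor limit the liver, endothelial and blood lists most.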

Other observations

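Several genes outside the lists differed widely and were picked after their values were seen. Sgk1, a kinase closely related to AKT that PI3K also activates, read 10262 on the non-transformed array, 16027 on H-RasV12, 2036 on myr-Akt and 2606 on c-Myc, a 7.87-fold excess on H-RasV12, with non-transformed cells second. Elk3, an ETS factor of the ternary complex group, was 14.1-fold higher (2272 against 161), and Runx1, a transcription factor of blood and epithelial progenitors, 7.54-fold (1408 against 187). Secreted regulators were among the higher genes: Angptl4, an inhibitor of lipoprotein lipase, read 1904 on the non-transformed array, 3877 on H-RasV12, 286 on myr-Akt and 319 on c-Myc (13.6-fold), Mdk, the growth factor midkine, 2069 on the non-transformed array, 3451 on H-RasV12, 502 on myr-Akt and 108 on c-Myc (6.87-fold), and Pcolce, an enhancer of procollagen processing, 5442 on the non-transformed array, 4690.5 on H-RasV12, 459.5 on myr-Akt and 665 on c-Myc (10.2-fold). Lifr, the receptor of leukaemia inhibitory factor, was 8.62-fold higher (2213 against 257), and Socs2, a brake on cytokine receptors, 7.94-fold (854 against 108). Thbd, thrombomodulin, was 12-fold higher (2233 against 187) and Cav2, a caveolin, 10.4-fold (2527 against 244).

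On the myr-Akt side, Slc40a1, the iron exporter ferroportin, read 218 on the non-transformed array, 130.2 on H-RasV12, 937 on myr-Akt and 559.6 on c-Myc (7.2-fold lower on H-RasV12), and Alad, an enzyme of haem synthesis, 1241 on the non-transformed array, 869.7 on H-RasV12, 4095 on myr-Akt and 2254 on c-Myc (4.71-fold). Hey1, a Notch target, was 6.91-fold lower (223 against 1544), as Hes1 was by less. Cemip, which degrades hyaluronan, was 7.73-fold lower (136 against 1051), Ogn, a small leucine-rich proteoglycan like decorin, 5.75-fold (109 against 626), and Gas6, a ligand of the AXL receptor, 4.68-fold (678 against 3173). Tbx18, a T-box factor of the lining of the heart, was 4.61-fold lower (644 against 2969.9), and Tgm2, a transglutaminase that crosslinks matrix, 4.69-fold (1961 against 9198).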
